A study of Mus musculus with 6 samples.

Results

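The replication-dependent histone genes encode the core histones H2A, H2B, H3 and H4 and the linker histone H1 that package newly made DNA. Members were taken by name, as all genes whose GENCODE M21 symbol starts with Hist1h, Hist2h, Hist3h or Hist4h and whose FPKM was above 0 in at least 1 sample. This gave 65 genes of the 28773 in the files. Of the 70 symbols of this kind in the gene table, 5 were not analysed here. By family there were 5 H1, 18 H2A, 18 H2B, 12 H3 and 12 H4 genes. By gene cluster, 52 belonged to Hist1 on chromosome 13, 9 to Hist2 on chromosome 3, 3 to Hist3 on chromosome 11 and 1 to Hist4 on chromosome 6. Pseudogenes made up 3 of the 65.

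The samples were CD8+ T cells from mouse spleens, collected on day 35 and profiled by bulk RNA-seq. All mice bore tumors that were treated with microwave ablation (MWA), which heats a tumor locally to destroy it. MWA+PBS mice (samples 1 to 3) also received the vehicle PBS. MWA+2DG mice (samples 4 to 6) received 2-deoxy-D-glucose (2DG), a glucose analogue that blocks glycolysis. The labels of these samples give neither the mouse strain, sex and age nor the tumor line. They do not say whether samples were separate mice or pools either, so the p-values measure only the spread between these samples.

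Most mRNAs end in a poly(A) tail, whereas replication-dependent histone mRNAs are cut just after a short stem-loop that the stem-loop binding protein Slbp holds. They are made mainly during S phase, when DNA is copied, and are degraded when it ends. Some of these genes can also give a longer, polyadenylated transcript, which is known from cells that have stopped dividing. The libraries were made from RNA bound to oligo(dT) beads, so the values cover mainly polyadenylated histone RNA and are not a measure of the total histone mRNA of these cells.

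The stem-loop is shown first because it sets the 3′ end that the libraries select against. The histone stem-loop motif was searched in the longest GENCODE M21 transcript of each gene. It was present in 42 of the 65 histone genes and in 0.139% of all 55450 genes with a transcript. The 42 genes held 8 versions of its 16 bases. The 4 sequences below stand for the higher-level members of H1, H2B and H4, with the stem-loop in capitals and 5 flanking bases on each side in lower case, 5′ to 3′ as DNA.
Hist1h1c: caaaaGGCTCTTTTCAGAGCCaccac
Hist1h2bg: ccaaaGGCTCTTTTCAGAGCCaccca
Hist1h4n: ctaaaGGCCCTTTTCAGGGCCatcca
Hist2h4: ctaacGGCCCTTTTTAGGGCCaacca

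The version in Hist1h1c and Hist1h2bg was shared by 24 genes of the H1, H2A, H2B and H3 families. The version in Hist1h4n occurred in 6 genes, all of them H4. Hist2h4 shared its version with Hist1h4i alone. The annotated transcript ended within 100 bases of the stem-loop in 20 genes and ran on for longer in 22. Another 14 genes had no match, and the remaining 9 transcripts were annotated as coding sequence only and so could not hold one. A poly(A) signal hexamer, AATAAA or the common variant ATTAAA, stood in the last 40 bases of 15 of the 65 transcripts. The same was true of 37.0% of all genes and 69.3% of protein-coding genes.

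The histone genes were low in every sample. FPKM scales the fragments of a gene to its transcript length and to the mapped fragments of the library, so levels can be set side by side between genes. The 65 genes together held between 0.00723% and 0.0151% of the FPKM of a sample. Only 9 genes averaged an FPKM of at least 1 over the 6 samples. Another 41 lay between 0.1 and 1, of which 17 were listed at 0 in at least 1 sample. The last 15 lay below 0.1 and never passed 0.32 FPKM. By mean FPKM over both groups the order of the 9 was Hist1h1c (8.03), Hist1h2bg (3.11), Hist2h2be and Hist3h2a (both 2.07), Hist1h2bc (1.67), Hist1h2al and Hist2h4 (both 1.34), Hist1h4i (1.13) and Hist1h4n (1.025). Neighbours from Hist2h2be down differed by less than the spread between their samples. The order was not the same in each group. Hist1h2bg was in place 2 of the 65 in MWA+PBS (5.45 FPKM) and in place 9 in MWA+2DG (0.773 FPKM), where Hist2h2be (2.52) and Hist3h2a (2.35) followed Hist1h1c.

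Of these 9 genes, 5 had a stem-loop followed by a longer annotated tail, 3 had no stem-loop match and 1, Hist1h4n, ended near its stem-loop. Hist1h1c ran 840 bases past the stem-loop, Hist1h2bg 155, Hist1h4i 330, Hist2h4 1257 and Hist3h2a 1643. All of these but Hist1h2bg carried a hexamer near the end, as did Hist2h2be. Thus 5 of the 15 genes with a hexamer reached a mean FPKM of 1, against 4 of the 50 without. The median levels of the classes lay close together. The median was 0.187 FPKM for genes ending near the stem-loop, 0.216 for those with a longer tail, 0.143 for those without a match and 0.178 for coding sequences only. These are annotated ends, and the ends of the sequenced RNA were not measured.

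**Figure D1:**
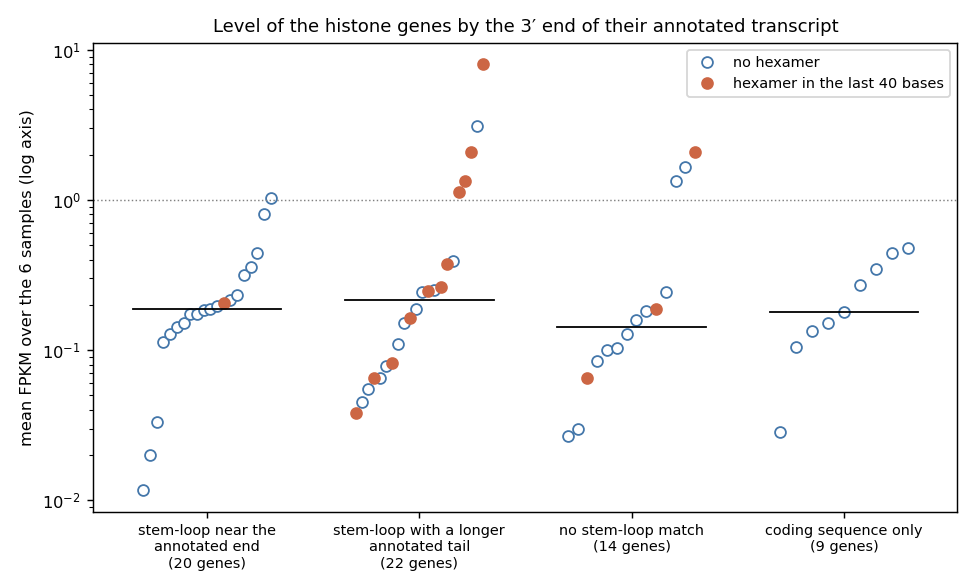
Mean FPKM over the 6 samples (log axis) of the 65 histone genes, 1 point per gene, grouped by the 3′ end of the annotated transcript, with filled points for a poly(A) signal hexamer and a bar at the median. The medians run from 0.143 to 0.216 FPKM, and the highest gene, Hist1h1c at 8.03, has a longer annotated tail and a hexamer.

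The question of the comparison was how 2DG added to MWA changed gene expression in these T cells. As a sum, histone RNA was lower in MWA+2DG. The sum over the 65 genes was 46.6, 41.2 and 39.8 FPKM in MWA+PBS and 22.1, 22.0 and 21.1 FPKM in MWA+2DG, or 42.6 ± 3.57 and 21.7 ± 0.546 (SD, n = 3 each). The samples of each group lay close together and the groups did not overlap. Hist1h1c alone made up between 17.9% and 30.2% of the sum in a sample. Without Hist1h1c the sums were 30.7 ± 2.98 and 17.5 ± 0.243 FPKM, and without Hist1h1c and Hist1h2bg they were 25.2 ± 2.44 and 16.8 ± 0.271 FPKM. The groups did not overlap in either case. No test was made of a sum, since the genes were chosen with earlier results of these data known. In bulk RNA, fewer cells of a type and less RNA per cell cannot be told apart.

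Each of the 5 family sums was lower in all MWA+2DG samples than in any MWA+PBS sample, narrowly so in H4. H1 went from 12.4 ± 0.971 FPKM (MWA+PBS) to 4.93 ± 0.199 (MWA+2DG), and H2B was 12.5 ± 2.05 and 5.60 ± 0.342. H2A was 9.08 ± 0.906 and 5.94 ± 0.622, and H3, the lowest family, was 2.84 ± 1.15 and 1.04 ± 0.448. The H4 sum was 6.87, 6.07 and 4.32 FPKM in MWA+PBS and 4.28, 4.16 and 4.25 FPKM in MWA+2DG. Sample 3 of MWA+PBS therefore lay just above the highest MWA+2DG value, and the groups were separated by less than the spread within MWA+PBS. Such sums follow their highest genes and do not show that each member fell. Every MWA+2DG value lay below every MWA+PBS value in 1 of 5 H1 and 4 of 18 H2A genes. For H2B it was 7 of 18, and for H3 and H4 2 of 12 each. Over all genes above 0 in at least 1 sample this held for 16.0%. In H1 the gene was Hist1h1c, while 2 of the 5 had a lower and 3 a higher mean in MWA+2DG.

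The clusters were summed separately. The 52 Hist1 genes summed to 37.2, 35.0 and 34.2 FPKM in MWA+PBS and 13.8, 13.0 and 12.9 FPKM in MWA+2DG. The 13 genes outside Hist1 summed to 9.42, 6.25 and 5.64 FPKM and to 8.29, 9.06 and 8.26 FPKM, and these groups overlapped. Their log2 ratio (MWA+2DG over MWA+PBS) was 0.27 as deposited and -0.09 with values centred on T lineage genes, so no direction is given for them. Among single Hist1 genes, every MWA+2DG value lay below every MWA+PBS value in 16 of 52, and none lay above. Outside Hist1 the counts were 0 of 13 below and 1 above, which was Hist2h2be. Over all 28458 genes above 0 in at least 1 sample, 16.0% lay wholly below and 17.1% wholly above. The difference between the clusters was not tested.

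**Figure D2:**
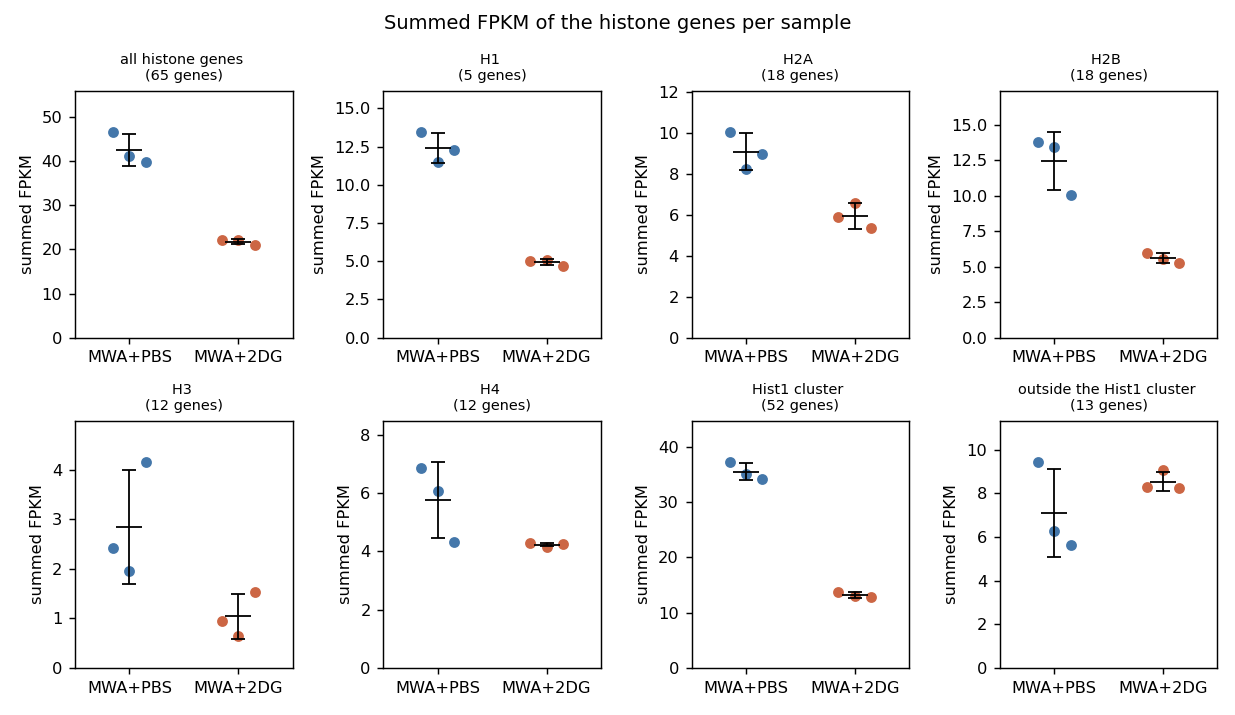
Summed FPKM per sample (points) of all histone genes, of each histone family, and of genes inside and outside the Hist1 cluster, with the mean and SD of each group of 3 as bars. The Hist1 sums are 34.2 or more in MWA+PBS and 13.8 or less in MWA+2DG, whereas the sums outside Hist1 overlap.

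Each gene was then tested by limma on log2(FPKM + 1), and log2 fold changes below are MWA+2DG minus MWA+PBS on that scale with their SE. Of the 9 histone genes with a mean FPKM of at least 1, 4 fell (Hist1h2bg, Hist1h1c, Hist1h2bc and Hist1h4i) and 1 rose (Hist2h2be). The same 5 passed both rules, the first being P under 0.05 and a change beyond 0.25 on the log2 scale, the second a Benjamini-Hochberg adjusted p under 0.05. Over all 12444 genes tested, the first rule called 38.2% in either direction and the second 39.4%. Hist1h2bg, Hist1h2bc, Hist1h4i and Hist1h4n averaged below 1 FPKM in MWA+2DG and passed the filter through MWA+PBS, so the count called among the 9 and their median are partly set by the filter and nothing is read from them. The median log2 fold change was -0.21 over the 9 histone genes and 0.05 over all genes tested.

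Hist1h1c encodes the linker histone H1.2, which binds where DNA enters and leaves the nucleosome. Its FPKM was 12.83, 10.73 and 12.02 in MWA+PBS and 4.27, 4.56 and 3.77 in MWA+2DG. The groups were far apart, with means of 11.9 ± 1.06 and 4.20 ± 0.40. The log2 fold change was -1.31 ± 0.09 (limma adjusted p = 3.44e-05). Of its 1560-base transcript, no 150-base window was shared with another gene. The other 4 H1 genes stayed below 0.5 FPKM in every sample. Of these, Hist1h1e was 0.35 ± 0.147 and 0.433 ± 0.0551 FPKM, with overlapping groups.

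Among the H2B genes, whose product pairs with H2A, the 3 higher ones went in both directions. Hist1h2bg had 6.04, 5.36 and 4.96 FPKM in MWA+PBS and 0.76, 0.96 and 0.60 FPKM in MWA+2DG. Its MWA+PBS mean was 7.05 times its MWA+2DG mean, the log2 fold change was -1.87 ± 0.11 (limma adjusted p = 1.54e-05), and this was the largest change among the 9. Hist1h2bc had 2.75, 3.47 and 1.29 FPKM and 0.77, 1.13 and 0.59 FPKM. Its groups were separated only narrowly, by sample 3 of MWA+PBS and sample 5 of MWA+2DG. The log2 fold change was -0.89 ± 0.24 (limma adjusted p = 0.0230). That call was lost on leaving out MWA+PBS sample 1 (adjusted p = 0.0718) or 2 (0.0576), or MWA+2DG sample 4 (0.0634) or 6 (0.0709). It was also lost without a filter on level (limma adjusted p = 0.0708).

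Hist1h2bg and Hist1h2bc share sequence. Of the 150-base windows of Hist1h2bg, 39.0% also occurred in another gene, and of those of Hist1h2bc 17.4%, so their reads could have been split between them. Their summed FPKM went from 7.96 ± 1.48 (MWA+PBS) to 1.60 ± 0.454 (MWA+2DG), and these groups did not overlap.

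Hist2h2be encodes an H2B variant best known from olfactory neurons. It was 1.68, 1.58 and 1.62 FPKM in MWA+PBS and 2.61, 2.43 and 2.52 FPKM in MWA+2DG. The samples within each group were nearly equal and all MWA+2DG values were higher. The log2 fold change was 0.42 ± 0.08 (limma adjusted p = 0.00411), and no 150-base window of its 2620-base transcript was shared with another gene. Its call depended on scaling. With values centred on 20 T lineage genes, its log2 fold change was 0.07 (limma adjusted p = 0.477).

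Among the H4 genes, whose product pairs with H3, Hist1h4i had 2.04, 1.73 and 1.09 FPKM in MWA+PBS and 0.21, 0.65 and 1.06 FPKM in MWA+2DG. Sample 3 of MWA+PBS and sample 6 of MWA+2DG nearly met. The log2 fold change was -0.69 ± 0.22 (limma adjusted p = 0.0401), and the adjusted p was 0.122 without MWA+PBS sample 1, 0.0933 without MWA+PBS sample 2, 0.101 without MWA+2DG sample 4 and 0.0823 without MWA+2DG sample 5. Without a filter on level the limma adjusted p was 0.103, and further settings that lost this call are given at the end. Hist2h4 was 1.12, 1.58 and 0.82 FPKM and 1.83, 1.36 and 1.32 FPKM, and Hist1h4n was 1.34, 1.12 and 1.04 FPKM and 0.84, 1.22 and 0.59 FPKM. In both genes the groups overlapped, with log2 fold changes of 0.21 ± 0.15 and -0.21 ± 0.14 (limma adjusted p = 0.301 and 0.273). Hist1h4n shared 77.2% of its windows with Hist1h4m, so these values are uncertain singly. The sum of the 2 genes was 1.03 ± 0.287 FPKM in MWA+2DG and 1.74 ± 0.259 in MWA+PBS.

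The 2 H2A genes above a mean of 1 did not pass the test. Hist3h2a was 2.26, 1.36 and 1.75 FPKM in MWA+PBS and 1.93, 2.56 and 2.57 FPKM in MWA+2DG. Its log2 fold change was 0.27 ± 0.14 (limma adjusted p = 0.166). It overlaps Trim17 on the same strand and shared 28.0% of its windows with that gene. Hist1h2al, annotated as a processed pseudogene, was 0.54, 1.62 and 2.26 FPKM and 2.18, 1.06 and 0.40 FPKM. Its log2 fold change was -0.17 ± 0.35 (limma adjusted p = 0.729). Its samples spread over about the same range in both groups, and it overlaps a gene on the opposite strand.

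**Figure D3:**
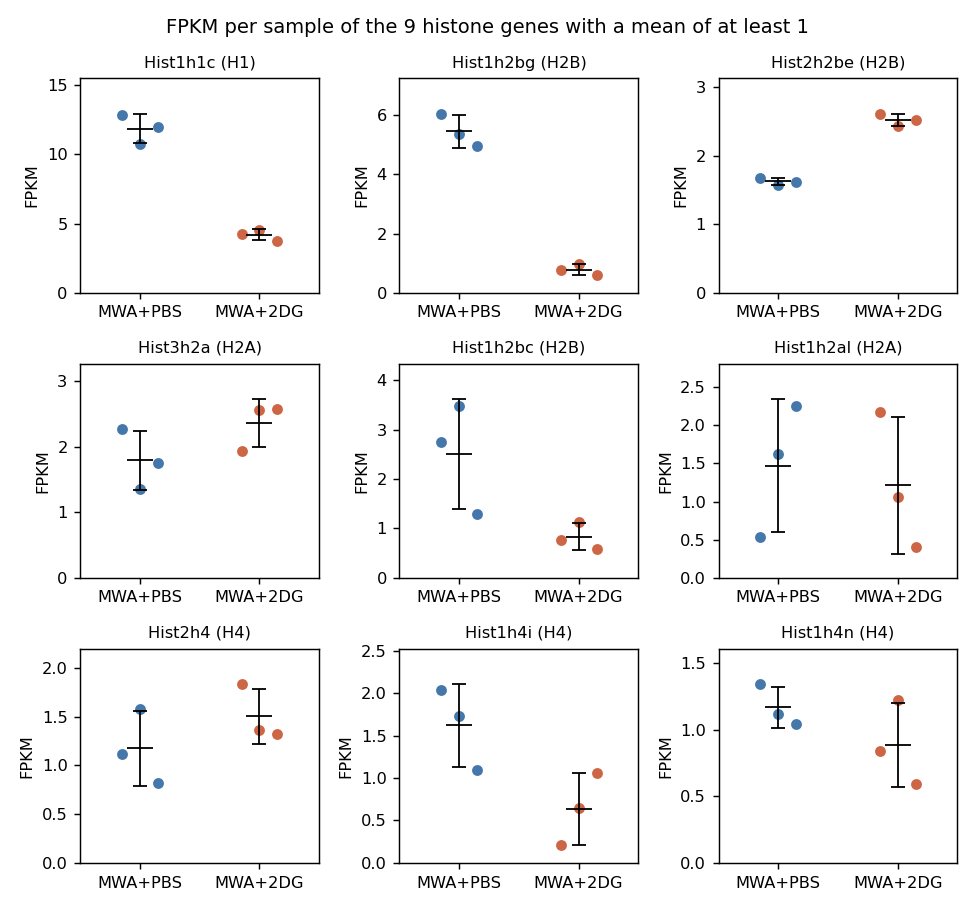
FPKM per sample (points) of the 9 histone genes with a mean of at least 1, with the mean and SD of each group of 3 as bars and each vertical axis starting at 0. Hist1h1c, Hist1h2bg, Hist1h2bc and Hist1h4i are lower in all MWA+2DG samples, Hist2h2be is higher, and the other 4 overlap.

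The histone genes at lower levels were counted in a wider fit. The fit for genes with a mean FPKM of at least 0.1 covered all 41 histone genes between 0.1 and 1, and 33 of these had a lower mean in MWA+2DG. Of the 41, 10 (24.4%) fell by the first rule and none rose, against 15.4% of all 6572 genes in this range called lower. At an adjusted p under 0.05, 6 (14.6%) fell, a share near the 12.0% of all genes in the range. Every MWA+2DG value lay below every MWA+PBS value in 12 (29.3%), against 21.2%. The median log2 fold change was -0.21 over the 41 and -0.03 over all genes in the range. Of the 41, 18 averaged below 0.1 FPKM in MWA+2DG and passed this filter through MWA+PBS alone, against 1 that passed through MWA+2DG alone. The 18 include 7 of the 10 and 5 of the 6 called genes, so the filter partly sets these counts and the median, and nothing is read from them or from their distance to all genes. At these levels the added 1 holds log2 fold changes close to 0.

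The 6 genes were Hist1h3i, Hist1h2ad, Hist1h2ac, Hist1h4m, Hist1h2bl and Hist1h2bk, all in the Hist1 cluster and drawn from each core family. All but Hist1h4m averaged below 0.1 FPKM in MWA+2DG (0.0133 to 0.0767) and were tested only because of their MWA+PBS values. With no filter on low values, 3 of the 6 calls were lost, those of Hist1h3i (limma adjusted p = 0.0513), Hist1h2ad (0.0867) and Hist1h2bl (0.0519). Hist1h3i, the H3 gene with the highest mean, was 0.46, 0.63 and 1.59 FPKM in MWA+PBS and 0.02, 0.02 and 0.13 FPKM in MWA+2DG (log2 fold change -0.80 ± 0.20, limma adjusted p = 0.0245). Hist1h2bk had the smallest SE of the 6, at 0.35, 0.41 and 0.30 FPKM and 0.05, 0.07 and 0.11 FPKM (-0.33 ± 0.07, limma adjusted p = 0.0123). The H2A genes Hist1h2ad and Hist1h2ac had means of 0.577 and 0.47 FPKM in MWA+PBS and 0.0533 and 0.03 FPKM in MWA+2DG. For Hist1h4m and Hist1h2bl the means were 0.57 and 0.343 FPKM and 0.143 and 0.0133 FPKM. The first rule added Hist1h2ai, Hist1h2bq, Hist1h2bj and Hist1h4h, whose adjusted p lay between 0.0598 and 0.116.

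Some genes in this range varied more within groups than between them. Hist2h2aa1, the highest of them, was 1.96, 0.49 and 0.00 FPKM in MWA+PBS and 0.19, 1.63 and 0.55 FPKM in MWA+2DG. Sequence shared between members bears on all these values. Of the 65 histone genes, 52 shared at least 1 window of 150 bases with another gene and 24 shared over 50% of their windows, and the sources used here do not say how reads with several matches were counted. The sum over the 56 genes below a mean of 1 was 16.0, 12.7 and 13.0 FPKM in MWA+PBS and 6.68, 6.10 and 7.69 FPKM in MWA+2DG. It is less exposed to splitting among its own genes, but not to splitting with genes outside it, such as between Hist1h4m and Hist1h4n. The 15 genes below 0.1 overlapped between groups without exception, with 7 lower and 8 higher means in MWA+2DG.

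**Figure D4:**
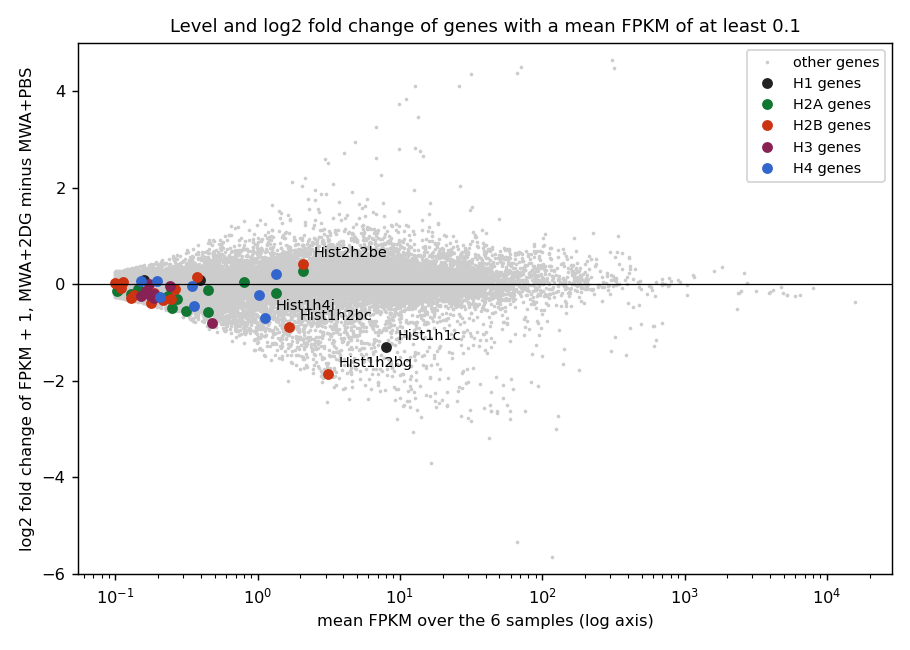
Mean FPKM over the 6 samples (log axis) against the log2 fold change of FPKM + 1 for all genes with a mean of at least 0.1 (grey) and for the histone genes by family (coloured). Hist1h2bg at -1.87 and Hist1h1c at -1.31 lie lowest, Hist2h2be at 0.42 lies highest, and most of the other histone genes lie between 0 and -0.80 at low FPKM.

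Promoters were searched next for motifs known from histone genes. Windows of 250 bases before to 50 bases after the gene start were taken from RefSeq (GRCm38.p6) and matched 56 of the 65 genes. Of the 9 genes with a mean FPKM of at least 1, Hist2h2be, Hist1h2bc, Hist1h2al and Hist2h4 were not matched, so the 1 gene that rose is not among the promoters. Both strands were searched for CCAAT, bound by NF-Y, for the octamer ATTTGCAT, bound by the POU factor Oct-1, and for the TATA box written as TATAAA. The CCAAT motif stood in all 5 H1, 15 H2A, 15 H2B and 10 H3 promoters but in only 3 of 11 H4 promoters, against 37.4% of all 32851 promoters. The octamer stood in 6 of 15 H2A and 5 of 15 H2B promoters and in none of the other families, against 1.74% of all promoters. TATAAA stood in 4 of 5 H1, 10 of 15 H2A, 7 of 15 H2B, 4 of 10 H3 and 7 of 11 H4 promoters, against 13.6% of all. Several H2A and H2B windows cover nearly the same DNA in opposite directions, as those of Hist1h2ae and Hist1h2bg do. The windows of Hist1h2bq and Hist1h2br hold the same bases. The same motif sites can thus count for both families, and these counts are not independent.

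The promoters of Hist1h2bg, with the largest change, of Hist1h1c, with the highest level, and of Hist3h2a, whose groups overlapped, are printed with these motifs, on either strand, in capitals. They lie at chr13:23571150-23571449 (plus strand), chr13:23738557-23738856 (plus strand) and chr11:58954435-58954734 (plus strand) of GRCm38.p6.
Hist1h2bg: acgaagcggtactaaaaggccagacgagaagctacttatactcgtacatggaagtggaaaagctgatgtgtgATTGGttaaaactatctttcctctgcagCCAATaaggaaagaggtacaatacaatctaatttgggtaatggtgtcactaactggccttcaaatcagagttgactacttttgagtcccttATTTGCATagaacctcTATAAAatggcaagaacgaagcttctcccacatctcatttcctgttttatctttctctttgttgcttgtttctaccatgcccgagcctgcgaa
Hist1h1c: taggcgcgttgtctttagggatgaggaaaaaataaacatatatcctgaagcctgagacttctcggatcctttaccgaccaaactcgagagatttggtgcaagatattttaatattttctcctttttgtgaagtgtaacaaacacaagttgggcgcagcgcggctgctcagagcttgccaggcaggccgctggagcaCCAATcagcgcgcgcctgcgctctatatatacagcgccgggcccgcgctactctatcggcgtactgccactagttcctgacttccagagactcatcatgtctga
Hist3h2a: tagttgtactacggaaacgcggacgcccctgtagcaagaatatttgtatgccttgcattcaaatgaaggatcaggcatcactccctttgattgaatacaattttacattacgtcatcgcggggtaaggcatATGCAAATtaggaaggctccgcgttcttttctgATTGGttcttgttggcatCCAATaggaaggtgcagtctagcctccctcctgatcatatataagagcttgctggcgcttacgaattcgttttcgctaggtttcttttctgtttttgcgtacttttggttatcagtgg

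Counted from the first base of each motif, in Hist1h2bg the octamer lay 59 bases and TATAAA 43 bases before the start, with CCAAT on one strand or the other at 178 and 150. Hist1h1c held 1 CCAAT at 54 bases and neither of the other motifs in the exact letters searched. Hist3h2a held the octamer at 119 and CCAAT at 86 and 68. Other spellings of a TATA box were not searched. The motifs did not overlap in these windows. Both Hist1h2bg and Hist3h2a held the octamer and CCAAT, and any tie between motifs and changes was not tested. Binding of factors was not measured.

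A list of histone variant genes outside the 4 clusters stood far higher. Such variants are mostly made from polyadenylated mRNA and are not tied to S phase, although H2afx also gives a stem-loop mRNA and Cenpa is made mainly in G2. The 11 genes of that list summed to 293.4 to 322.5 FPKM across MWA+PBS samples and 281.0 to 305.5 across MWA+2DG samples, which overlap. Of the 9 tested, 4 (44.4%) fell and 1 rose at an adjusted p under 0.05, against 17.1% lower and 39.4% in either direction over all genes tested. With T lineage scaling 8 of the 9 fell and none rose, against 59.5% lower over all genes. H2afx, which encodes the H2A variant phosphorylated at DNA breaks, went from 25.5 ± 3.68 FPKM (MWA+PBS) to 17.7 ± 1.63 (MWA+2DG) (log2 fold change -0.50 ± 0.11, limma adjusted p = 0.0109). The next largest decreases were Cenpa, the centromeric H3 variant (-0.28), and H2afz, the H2A.Z gene (-0.24). H3f3b, an H3.3 gene, rose from 75.7 ± 7.55 to 93.1 ± 6.51 FPKM (0.30 ± 0.09, limma adjusted p = 0.0278), and with T lineage scaling its log2 fold change was -0.06.

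Of 22 tested genes that process or degrade histone mRNA, 2 fell and 3 rose at an adjusted p under 0.05, with a median log2 fold change of 0.10. These 5 are 22.7% of the list, against 39.4% of all genes tested. Both the balance and the share turned over with T lineage scaling, under which 17 of the 22 (77.3%) fell and none rose, against 64.5% of all genes called in either direction. Slbp was 11.8, 13.6 and 12.0 FPKM in MWA+PBS and 10.6, 10.3 and 10.9 FPKM in MWA+2DG. It fell by 0.21 ± 0.07 on the log2 scale (limma adjusted p = 0.0408). The other that fell was Cpsf2 (-0.22), a subunit of the cleavage complex. Its nuclease Cpsf3 rose (0.26), as did the cleavage stimulation factor gene Cstf2t (0.39) and Wdr33 (0.18), which binds the poly(A) signal. With T lineage scaling Cpsf3 and Wdr33 changed sign, to -0.09 and -0.17, and Cstf2t was 0.04. Npat, the activator of histone gene transcription, was 8.15 ± 0.757 and 9.11 ± 0.387 FPKM and did not pass the test (limma adjusted p = 0.163).

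Among 23 histone chaperones, which carry histones to and from DNA, 4 fell and 3 rose by the same rule, with a median log2 fold change of -0.01. These 7 are 30.4% of the list, against 39.4% of all genes tested. With T lineage scaling 19 of the 23 (82.6%) fell and none rose, against 64.5% of all genes called, so this balance turned over too. The largest decreases were Chaf1a (-0.65), the large subunit of the factor that loads histones at replication forks, Asf1b (-0.41) and Anp32e (-0.23). Chaf1a went from 3.64 ± 0.301 FPKM (MWA+PBS) to 1.95 ± 0.144 (MWA+2DG). Daxx (0.30) and Atrx (0.27), which deposit H3.3, and Nap1l4 (0.19) rose, and with T lineage scaling these 3 were -0.06, -0.08 and -0.16. Nasp, which holds soluble H3 and H4, was 9.03 ± 0.562 and 7.76 ± 0.43 FPKM (limma adjusted p = 0.0578).

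Lists of cell cycle genes were counted in the same fit. Of 32 S phase genes tested, 20 (62.5%) fell and none rose at an adjusted p under 0.05, with a median log2 fold change of -0.36, and all 20 mitosis genes fell, with a median of -0.79. Over all 12444 genes tested, 17.1% fell and 22.3% rose by this rule, with a median of 0.05. The mitosis genes summed to 178.6 to 190.5 FPKM across MWA+PBS samples and 94.95 to 99.95 across MWA+2DG samples.

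Markers of other cell types moved between the groups as well. Of 20 T lineage markers 16 rose and 1 fell, and they summed to 1925 to 1998 FPKM across MWA+PBS samples and 2562 to 2685 across MWA+2DG samples, so T cell genes were abundant in every sample. All 12 macrophage markers fell, summing to 864.9 to 930.7 FPKM in MWA+PBS and 123.3 to 132.2 FPKM in MWA+2DG, with Adgre1 from 31.4 to 4.60 and Cd68 from 73.5 to 12.2. Of 14 tested erythroid markers 13 fell (sums 352.8 to 408.5 and 108.6 to 126.1), with Hba-a1 from 103.1 to 22.2 and Hba-a2 from 86.2 to 19.3. Of 6 promyelocyte markers 5 fell and 1 rose (sums 332.7 to 389.6 and 64.9 to 68.7), with Mpo from 226.1 to 33.4 and Elane from 47.2 to 10.7. No gene of these lists was at 0 in all samples.

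In the other direction, 9 of 10 neutrophil markers rose (sums 66.2 to 90.5 and 1564 to 1744), with S100a8 from 5.31 to 136.3 and S100a9 from 23.2 to 595.8. Of 9 tested B cell markers 8 rose and 1 fell (sums 13.9 to 15.3 and 54.8 to 59.6), with Cd79a from 1.22 to 12.5 and Cd79b from 6.53 to 16.3. Of 6 tested plasma cell markers 3 fell and 1 rose (sums 95.1 to 105.5 and 54.5 to 61.8), with Jchain from 62.2 to 24.7, while Sdc1 was 0.723 and 0.67 and below the level tested. The part of these cell types, and of cell division, in the histone values was not tested.

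**Figure D5:**
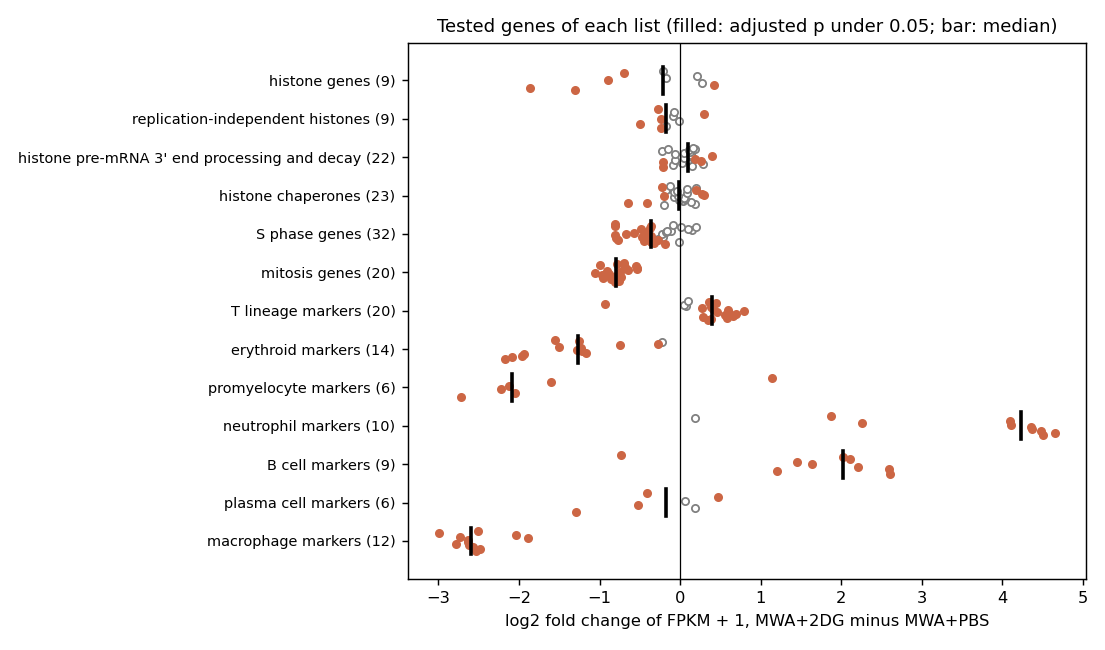
Log2 fold change of FPKM + 1 (MWA+2DG minus MWA+PBS) of the tested genes of each list, 1 point per gene, filled where the limma adjusted p was under 0.05, with a bar at the list median and the number of tested genes in brackets. The histone genes have a median of -0.21, the S phase genes -0.36 and the mitosis genes -0.79, while the marker lists of other cell types spread from -2.60 for macrophages to 4.23 for neutrophils. The histone median is partly set by the filter on level, and nothing is read from it.

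Centring on the T lineage genes lowered every log2 fold change by 0.355 and took the median over all tested genes from 0.05 to -0.31. Under that scaling 5 of the 9 histone genes fell and none rose, since Hist1h4n passed (-0.57, limma adjusted p = 0.0114) and Hist2h2be did not, whereas 572 of all tested genes rose and 6901 fell by the first rule (60.1% called).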

How the data were processed

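Poly(A) RNA of 6 samples, 3 per group by the labels, was sequenced from strand-marked libraries with molecular identifiers. The deposited values are FPKM with 2 decimals, made by the authors with HISAT2 and StringTie. The study's methods also name fastp and ballgown, and the submitters' processing notes list cutadapt 1.9, HISAT2 2.0.4, UMI-tools, StringTie 1.3.4d and build mm9. Read depth is unknown, since FPKM keeps no counts, and no counting intervals were made. FPKM totals were 291803 to 313257, and 0 pairs of samples held identical values. The labels name no batch, which therefore cannot be told apart from the groups.

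Symbols and transcripts came from GENCODE M21 (symbols for 28689 of 28773 IDs). limma 3.58.1 in R 4.3.3 (lmFit, eBayes with trend) was fitted on log2(FPKM + 1), two-sided, to 12444 genes with mean FPKM of at least 1. The pseudocount of 1 understates changes of low genes. On simulated data for this comparison (12444 genes, 200 changed by 1 on the log2 scale) it recovered 86.5% of changed genes and called 0.114% of the others. Far fewer genes changed there than the 39.4% called in the data, so these shares need not hold for the data.

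The histone genes and gene lists were chosen with earlier results of these data known. The rule named every histone gene with mean FPKM of at least 1, those below called in the fit at 0.1 or more, up to 3 changes per direction in the 3 histone-related lists, Slbp, Npat and Nasp, and the first 2 genes of each marker list. Hist2h2aa1 and Hist1h1e were added after their values were seen. Alternatives changed the pseudocount, filter, scaling, variance model, fold threshold or samples.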

Additional observations from a re-analysis of the deposited data

How the results depend on the processing

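Of the 9 histone genes with a mean FPKM of at least 1, 5 were called by either rule. Without a filter the adjusted p called 7 of 65, against 18.3% of all genes, and the first rule called 14, against 21.5%. With a mean FPKM of at least 0.1 it called 15 of 50 and the adjusted p called 10, against 33.3% and 30.3% of all genes, and with a mean of at least 5 each called 1, the only histone gene then tested, against 35.0% and 40.4%. A log2 fold change beyond 1 left 2 of 9, against 5.04% of all genes. The median log2 fold change of -0.21 became -0.41 with a pseudocount of 0.1, -0.37 when genes of abundant classes (mitochondrial, haemoglobin, immunoglobulin, ribosomal protein) were left out of the scaling, -0.57 with T lineage scaling and -1.31 with a mean of at least 5. It became -0.13 with quantile normalization and also -0.13 without a filter. The log2 ratio of the summed FPKM, -0.97, became -1.32 with T lineage scaling. Leaving out 1 sample gave between 3 and 5 calls of 9 by adjusted p (29.8% to 41.7% of all genes), medians between -0.48 and -0.098 and log2 ratios of the sum between -1.01 and -0.90. Of 136 values of single genes under an alternative, 115 kept their direction and their side of the threshold, 15 lost and 1 gained the call, and 5 changed sign. These 5 were Hist3h2a (-0.083) and Hist2h4 (-0.14) with T lineage scaling and Hist1h2al with arrayWeights (0.20), without MWA+PBS replicate 3 (0.06) and without MWA+2DG replicate 6 (0.12). None of the 3 genes was called. Hist1h4i also lost its call with a pseudocount of 0.1 (adjusted p = 0.0599), no filter (0.103), a mean of at least 0.1 (0.05003), quantile normalization (0.0635) and scaling without abundant classes (0.0509), and Hist1h2bc without a filter (0.0708). Where the construction of an alternative does not show it, the cause was not tested. No paired analysis was possible because the numbers 1 to 3 and 4 to 6 tie no sample of one group to a sample of the other. Depth is unknown, and genes listed at 0 may be below detection.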
